A study of Homo sapiens with 8 samples.

Results

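The human microRNA cluster described here lies in 1 intron of CLCN5, the gene of an endosomal chloride/proton exchanger that is mutated in Dent disease. Its members are the mature arms hsa-miR-532-5p, hsa-miR-532-3p, hsa-miR-188-5p, hsa-miR-500a-5p, hsa-miR-500a-3p, hsa-miR-362-5p, hsa-miR-501-5p, hsa-miR-501-3p, hsa-miR-660-5p and hsa-miR-502-3p, written below without the species prefix. They were taken by name, and all 10 were found among the 2575 miRNA names counted in each library. Small RNA had been sequenced from HCT116, an established human colorectal cancer cell line grown attached and used between passage 16 and passage 19. The cells of 4 libraries had spent 6 hours with enterotoxigenic Bacteroides fragilis (ETBF), a colonic anaerobe whose secreted toxin leads to cleavage of E-cadherin, at a multiplicity of infection of 500. The 4 control libraries are titled untreated and, per the labels' protocols, came from cells given bacterial medium without ETBF. The labels do not say that replicates were separate cultures, so p-values measure the spread between these libraries, which may be technical.

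MicroRNA clusters are often transcribed as 1 long primary RNA, from which Drosha cuts each hairpin and Dicer then releases a 5p and a 3p arm. One arm usually enters Argonaute and accumulates while the other is degraded, and a mature miRNA recognises its targets mainly through its seed. Arms of hairpins on 1 primary RNA share transcription but can differ in processing and stability. The comparison asks whether the arms of this cluster moved together after contact with ETBF. Whether its hairpins come from 1 primary RNA in HCT116 was not tested.

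The 8 hairpins of the cluster (miR-532, miR-188, miR-500a, miR-362, miR-501, miR-500b, miR-660 and miR-502, in this order) span 11.5 kb at chrX:50003148-50014683 on the plus strand of GRCh38.p14 in RefSeq. The count files carry no coordinates and were made against GRCh37.p5. miR-532 and miR-188 lie 264 bases apart, and 4842 bases separate them from miR-500a and the other hairpins. In GENCODE 29 (GRCh38) each hairpin lies in the same single intron of 3 of the 9 CLCN5 transcripts, on the strand of the gene, and none overlaps an exon.

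RefSeq mature sequences (GRCh38.p14) matched 9 of the 10 members and all 6 other arms of these hairpins. The arms below are shown because their similarity decides which levels can be told apart. They are written 5′ to 3′, with the seed (bases 2 to 8) in capitals.
miR-532-5p: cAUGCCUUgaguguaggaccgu
miR-532-3p: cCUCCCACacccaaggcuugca
miR-188-5p: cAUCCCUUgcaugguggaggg
miR-362-5p: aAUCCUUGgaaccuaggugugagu
miR-500a-5p: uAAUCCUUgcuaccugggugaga
miR-500b-5p: aAUCCUUGcuaccugggu
miR-501-5p: aAUCCUUUgucccugggugaga
miR-500a-3p: aUGCACCUgggcaaggauucug
miR-501-3p: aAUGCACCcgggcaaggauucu
miR-502-3p: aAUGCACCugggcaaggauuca

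miR-501-3p and miR-502-3p share the seed AUGCACC, and miR-362-5p shares AUCCUUG with miR-500b-5p. Among the 417 of 480 tested miRNAs with a RefSeq mature sequence, none outside the cluster had the seed of one of the 9 matched members. The arms miR-501-3p and miR-502-3p differ by the substitutions C9U and U22A, counted from the 5′ end of miR-501-3p. miR-500a-3p and miR-502-3p share a run of 20 bases and differ over their aligned part by U21A, counted in miR-500a-3p. The levels of these 3p arms are therefore uncertain as separate values. The whole of miR-500b-5p is contained in miR-500a-5p, and the 2 entries had equal counts in 7 of 8 libraries, with 54 against 52 counts in control replicate 2. Their reads thus appear to have been counted under both names, and miR-500a-5p cannot be told from miR-500b-5p in these files.

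The ETBF libraries held 2591655 to 4706156 counts and the controls 5243400 to 6522542, so depth differed between the groups without overlap. A count of 0 allows a level of up to 3 counts, which equals 0.637 to 1.16 CPM in ETBF libraries and 0.460 to 0.572 CPM in controls (counting error only). CPM is the read count relative to library size, with TMM scaling for all levels below and without it for this limit. Of the epithelial miRNAs fixed as a check of the cells, all 5 were present, with a summed level of 16688 to 19847 CPM after ETBF and 19943 to 21780 CPM in controls (0 higher and 2 lower with ETBF). Blood markers summed to 71.2 to 105 CPM after ETBF and 58.4 to 68.0 CPM in controls (1 of 4 tested higher, 0 lower). Markers of stroma, muscle and endothelium summed to 1283 to 1476 CPM after ETBF and 1676 to 1867 CPM in controls (0 of 3 tested higher, 1 lower). Entries that resemble ribosomal or other RNA summed to 191 to 603 CPM after ETBF and 44.7 to 172 CPM in controls, with 4 of 4 tested higher and miR-4454 at 0 in every library. The part of these differences in the results below was not tested.

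The cluster did not move as 1 unit. With ETBF its most abundant arm, miR-532-5p, fell 1.55-fold, its second most abundant arm, miR-660-5p, rose 1.34-fold, and the other 8 members did not pass the test (edgeR, adjusted over 480 tested miRNAs). Thus 1 of 10 members was higher and 1 lower, where 19.8% of all tested miRNAs were called higher and 14.6% lower, and 34.4% either way. Whether the members' share lay below or above that of all miRNAs turned with the scaling. Values of all 4 ETBF libraries lay above all controls for 1 member, against 18.1% of tested miRNAs, and below them for 2, against 15.6%. The log2 fold change was below 0 for 6 of 10 members, against 49.4% of tested miRNAs, with signs that turned under other scalings for miR-532-3p, miR-188-5p, miR-500a-3p and miR-501-3p. With upper-quartile scaling 1 member was higher and 3 lower, where 14.8% of all tested miRNAs were higher and 18.5% lower, so that 44.4% of all calls were higher against 57.6% with TMM. The median log2 fold change was -0.04 over the 10 members and 0.01 over all 480. A change in bulk RNA cannot tell fewer cells with a miRNA from less of it per cell.

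**Figure D1:**
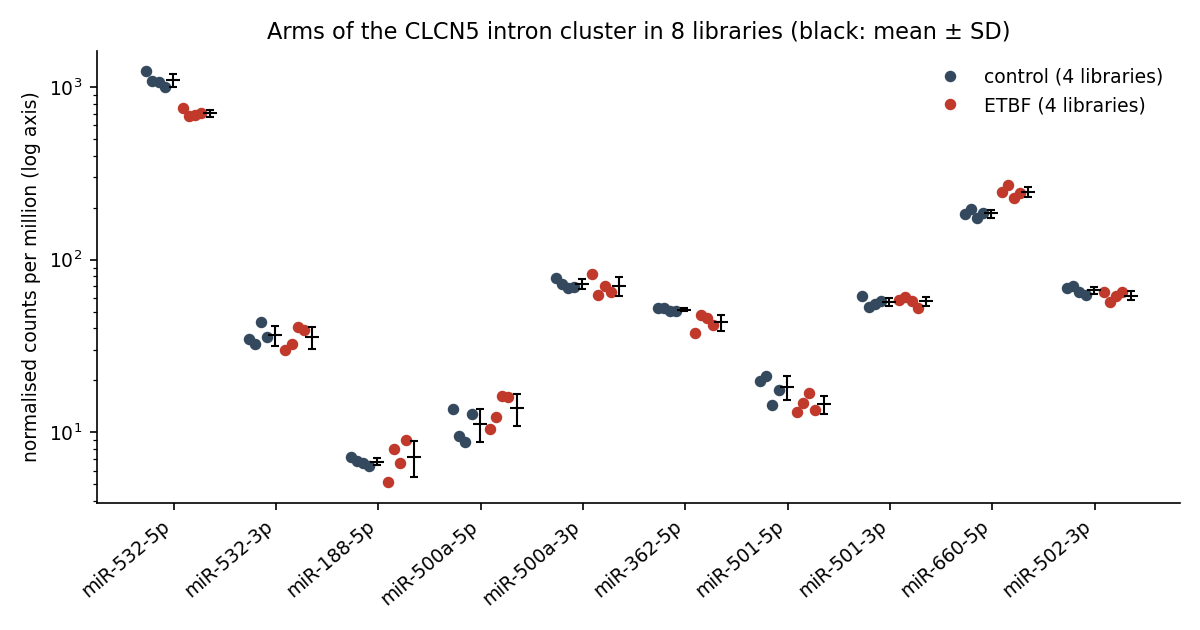
Normalised read count in CPM (log axis) of the 10 members in the order of their hairpins, with 1 point per library and black marks for the mean ± SD of 4 libraries. All 4 ETBF libraries lie below the controls for miR-532-5p and above them for miR-660-5p, while most other arms overlap between the groups.

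miR-532-5p, an arm reported to repress the tumour suppressor RUNX3 in gastric cancer, was at 751, 674, 684 and 707 CPM in ETBF replicates 1 to 4. It was at 1232, 1079, 1069 and 997 CPM in control replicates 1 to 4. Every ETBF library lay below every control. The mean fell from 1094 ± 98.8 to 704 ± 34.2 CPM (SD, n = 4 each), with log2 fold change -0.64 (SE 0.08, edgeR adjusted p = 8.89e-06). The call held in all 21 alternatives computed, with log2 fold changes from -0.72 to -0.57.

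miR-532-3p, the minor arm of the same hairpin, did not show the fall of its partner. It was at 30.1, 32.4, 40.8 and 38.9 CPM after ETBF and at 34.6, 32.4, 43.3 and 35.5 CPM in controls, and the groups overlapped. Its log2 fold change was -0.04 (SE 0.13, adjusted p = 0.833), with a sign that turned with total-count scaling.

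miR-660-5p, an arm reported to target the p53 inhibitor MDM2 in lung cancer, was at 247, 270, 227 and 245 CPM with ETBF. In controls it was at 183, 197, 173 and 187 CPM. Every ETBF library lay above every control, so this arm moved against miR-532-5p. The mean rose from 185 ± 9.91 to 247 ± 17.7 CPM (SD, n = 4 each), with log2 fold change 0.42 (SE 0.08, edgeR adjusted p = 7.31e-04). The call held in all 20 alternatives that gave it a value, with log2 fold changes from 0.34 to 0.48. Its partner miR-660-3p had 34 counts in all with ETBF and 39 in all in controls (0.36, SE 0.40, adjusted p = 0.516), too few to show a change of that size.

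The counts of miR-532-5p were 2.50 to 3.04 times those of miR-660-5p in the ETBF libraries and 5.33 to 6.74 times in the controls. This ratio of 2 entries of the same library does not depend on scaling. The mean log2 ratio was 1.51 with ETBF and 2.56 in controls, a difference of -1.05. No overlap of the groups follows from the levels of the pair, since both arms were already apart between the groups in opposite directions, so no test is given for their ratio.

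**Figure D2:**
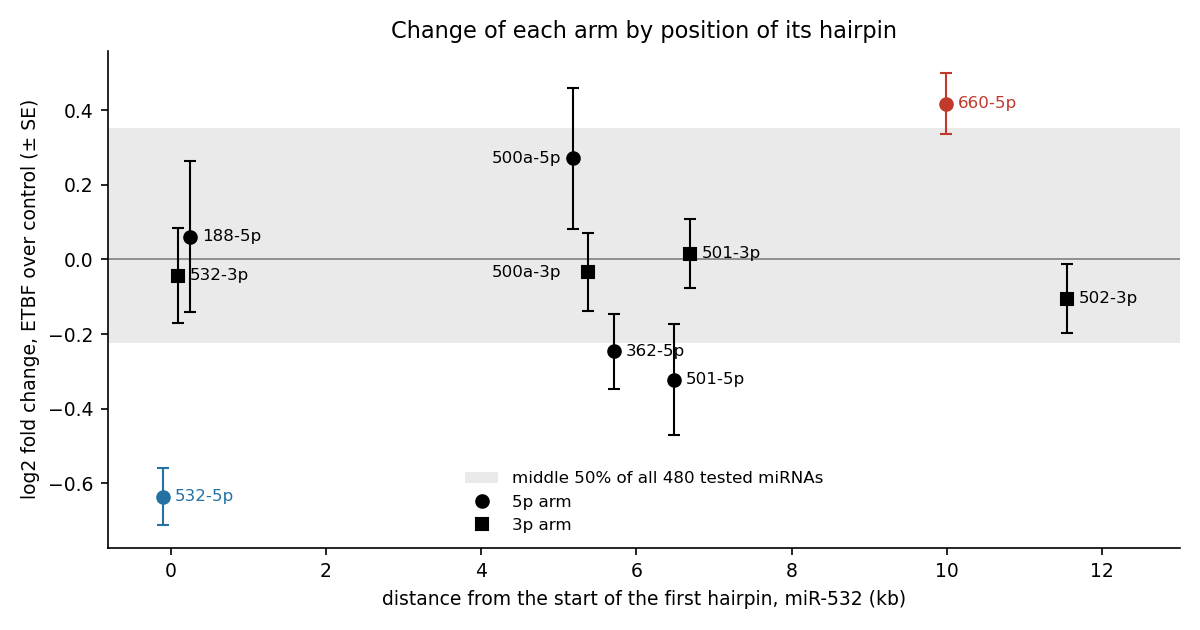
Log2 fold change of each member (ETBF over control, bars ± SE) against the distance of its hairpin from the first one in kb, with 5p arms as circles and 3p arms as squares, drawn slightly apart for 1 hairpin. The lower arm miR-532-5p (blue) and the higher arm miR-660-5p (red) lie outside the grey band, which holds the middle 50% of all tested miRNAs. The black arms did not pass the test, and of these miR-362-5p and miR-501-5p also lie below the band.

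miR-362-5p, reported to target CYLD, a deubiquitinase that restrains NF-kB signalling, was at 37.4, 47.9, 46.0 and 41.9 CPM after ETBF and at 52.3, 52.3, 50.2 and 50.7 CPM in controls. All ETBF values lay below all control values, yet the arm missed the threshold (log2 fold change -0.25, SE 0.10, adjusted p = 0.0726). It passed in 5 of 21 alternatives, among them RLE scaling (-0.27, adjusted p = 0.0492), upper-quartile scaling (-0.33, adjusted p = 0.0247) and without ETBF replicate 2 (-0.33, adjusted p = 0.0359). It also passed with a trend by GC content of the mature sequence removed (-0.34, edgeR adjusted p = 0.0131). Its adjusted p ranged from 9.80e-04 to 0.206 over the alternatives. The lowest value came with a GC trend of the hairpin removed (-0.45), an alternative chosen after seeing the data. With it, 3 of 10 members had values without overlap between the groups, against 33.8% of all tested miRNAs.

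miR-501-5p was at 13.1, 14.8, 17 and 13.5 CPM after ETBF and at 19.9, 21.1, 14.4 and 17.6 CPM in controls. The groups overlapped through control replicate 3, and without that library the log2 fold change was -0.42 (adjusted p = 0.0426), against -0.32 (SE 0.15, adjusted p = 0.108) with all libraries. miR-501-5p passed in 3 of 19 alternatives. Besides that one they were upper-quartile scaling (-0.40, edgeR adjusted p = 0.0386) and removal of a trend by GC content of the mature sequence (-0.40, edgeR adjusted p = 0.0396). After thinning of every library to the depth of the smallest its log2 fold change was -0.039 (adjusted p = 0.868). miR-500a-5p was at 10.5, 12.2, 16.2 and 16.1 CPM after ETBF and at 13.7, 9.51, 8.74 and 12.8 CPM in controls. It overlapped too, with log2 fold change 0.27 (SE 0.19, adjusted p = 0.300). It was 0.16 without ETBF replicate 3, 0.17 without control replicate 3 and 0.43 after thinning, and did not pass in any of these. miR-500a-5p and miR-501-5p differ by 3 substitutions over 22 aligned bases and have different seeds. When these arms were summed to 1 entry, the log2 fold change was -0.05 (SE 0.14, adjusted p = 0.804). It was 0.05 (SE 0.14, adjusted p = 0.801) when miR-500b-5p was added to that sum, which enters the reads shared with miR-500a-5p a second time.

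The near-identical 3p arms gave log2 fold changes close to 0. miR-500a-3p was at 70.3 ± 9.09 CPM after ETBF and 72.2 ± 4.60 CPM in controls (-0.03, SE 0.10, adjusted p = 0.837). miR-501-3p, reported to regulate a glutamate receptor subunit in neurons, was at 57.4 ± 3.38 and 57.0 ± 3.29 CPM (0.02, SE 0.09, adjusted p = 0.917). miR-502-3p was at 62.0 ± 3.99 and 66.7 ± 3.24 CPM (-0.10, SE 0.09, adjusted p = 0.414; SD, n = 4 each throughout). The ETBF and control values overlapped for each of them. The signs for miR-500a-3p and miR-501-3p turned with other scalings. Summed with miR-500b-3p to 1 entry, they gave -0.03 (SE 0.08, adjusted p = 0.826).

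miR-188-5p was the least abundant member, with 24 to 34 counts in the ETBF libraries and 35 to 43 in the controls. Its level was 5.16, 7.99, 6.68 and 8.98 CPM after ETBF and 7.16, 6.87, 6.65 and 6.41 CPM in controls. The ETBF values spread around the control values, with log2 fold change 0.06 (SE 0.20, adjusted p = 0.842), which turned below 0 with upper-quartile scaling. A difference within that error was not detectable at this depth.

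Of the 6 arms of these hairpins outside the members, miR-660-3p and miR-500b-5p had enough counts to test, and 0 passed in either direction. miR-500b-5p, which repeats the counts of miR-500a-5p, was at 0.28 (SE 0.19, adjusted p = 0.285). The untested miR-188-3p, miR-362-3p, miR-502-5p and miR-500b-3p had 0 to 15 counts in a library. Over all ETBF libraries they had 6, 41, 33 and 24 counts, and over all controls 5, 37, 48 and 17.

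The order of the members' levels was led by miR-532-5p, miR-660-5p, miR-500a-3p, miR-502-3p and miR-501-3p, and then miR-362-5p, miR-532-3p, miR-501-5p, miR-500a-5p and miR-188-5p, in both groups. Each read is taken to cover a whole mature arm, so these CPM values were compared between arms without division by length. How well different arms are recovered by sequencing was not calibrated. The order, the word abundant, the shares and the leading arms therefore refer to reads. In controls the ranges of neighbours in this order overlapped only for miR-500a-3p and miR-502-3p. With ETBF they overlapped for miR-500a-3p and miR-502-3p, miR-502-3p and miR-501-3p, miR-362-5p and miR-532-3p, and miR-501-5p and miR-500a-5p. Among all 480 tested miRNAs miR-532-5p ranked 66 by mean level and miR-188-5p 335.

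The 10 arms together made up 0.123% to 0.131% of all counts in the ETBF libraries and 0.150% to 0.167% in the controls. Their summed level was 1599 ± 109 CPM in controls and 1256 ± 32.2 CPM after ETBF (mean ± SD of 4 libraries), 21.5% lower with ETBF and without overlap. Without miR-532-5p the sum of the other 9 was 551 ± 9.79 CPM after ETBF and 505 ± 15 CPM in controls, with every ETBF library above every control. The 8 arms other than miR-532-5p and miR-660-5p summed to 304 ± 8.83 and 320 ± 11.0 CPM and overlapped. The direction of the cluster's sum was thus that of its single most abundant arm.

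Within the cluster miR-532-5p took 57.7%, 54.4%, 55.7% and 56.4% of the 10 arms' counts in ETBF replicates 1 to 4. In control replicates 1 to 4 it took 70.4%, 67.7%, 68.7% and 66.6%. miR-660-5p took 18.5% to 21.8% with ETBF and 10.4% to 12.5% in controls. The other 8 arms took 23.3% to 25.8% with ETBF and 19.2% to 20.9% in controls. The groups did not overlap for any of these 3 shares, which are described without a test because they add up to a fixed total. For miR-532-5p and miR-660-5p this follows from levels and sums that were already apart. The share of the other 8 was larger with ETBF although their summed level overlapped, since the total of the 10 arms was lower.

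**Figure D3:**
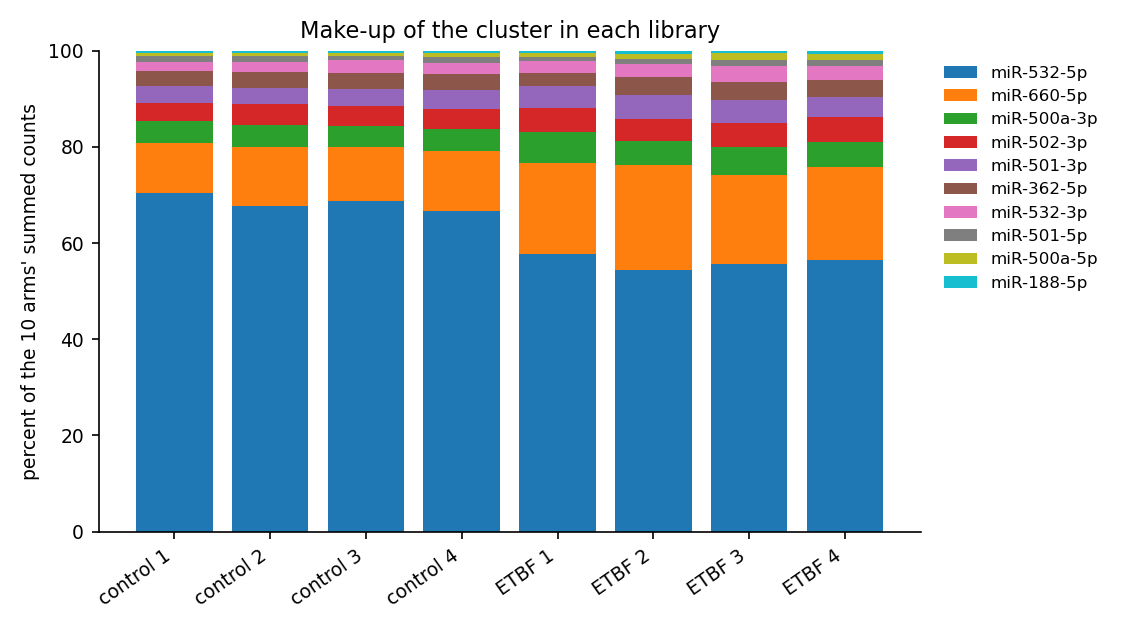
Percent of the 10 arms' summed counts taken by each arm, as 1 stacked bar per library. The blue share of miR-532-5p is 66.6% to 70.4% in the 4 controls and 54.4% to 57.7% in the 4 ETBF libraries, and the orange share of miR-660-5p is larger with ETBF.

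The arms of 1 hairpin come from the same precursor, so the 5p to 3p ratio was compared next, for each of the 118 hairpin names whose arms were both tested. For miR-532 the 5p counts were 25, 20.8, 16.7 and 18.2 times the 3p counts with ETBF, and 35.6, 33.3, 24.7 and 28.1 times in controls. The groups overlapped at 1 pair of libraries, ETBF replicate 1 and control replicate 3. The log2 ratio was lower with ETBF by a difference of -0.60 (SE 0.17, limma adjusted p = 0.0279 over 118 hairpins), where 32.2% of all hairpins were called and 20.3% in this direction. Leaving out ETBF replicate 2, 3 or 4, or control replicate 1 or 2, ended the call, with adjusted p of 0.0519, 0.0762, 0.0835, 0.0686 and 0.0679.

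The arm ratio did not pass for the other 3 tested hairpins of the cluster. It was 0.127 to 0.247 with ETBF and 0.128 to 0.184 in controls for miR-500a (log2 difference 0.35, SE 0.23, adjusted p = 0.277), whose 5p counts cannot be told from those of miR-500b. The difference was 0.55 (adjusted p = 0.0543) without ETBF replicate 1 and 0.23 (adjusted p = 0.501) without ETBF replicate 4. For miR-501 it was 0.225 to 0.293 with ETBF and 0.260 to 0.395 in controls (-0.32, SE 0.16, adjusted p = 0.147). For miR-660 it was 80.4 to 230 with ETBF and 80.0 to 152 in controls (0.02, SE 0.32, adjusted p = 0.964), a ratio that rests on 5 to 14 counts of the 3p arm and whose sign turned with 2 added to each count and without ETBF replicate 1 (-0.30). The 5p arm had more counts than the 3p arm at miR-532, miR-188, miR-362 and miR-660, and the 3p arm had more at miR-501 and miR-502. At miR-500a the 3p arm had more even with all shared 5p reads assigned to it, and for miR-500b no leading arm can be given. The 3p counts of miR-500a, miR-501 and miR-502 belong to near-identical arms and are uncertain as separate values. The ratios of miR-500a and miR-501 and the leading arms of all these hairpins carry that uncertainty.

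**Figure D4:**
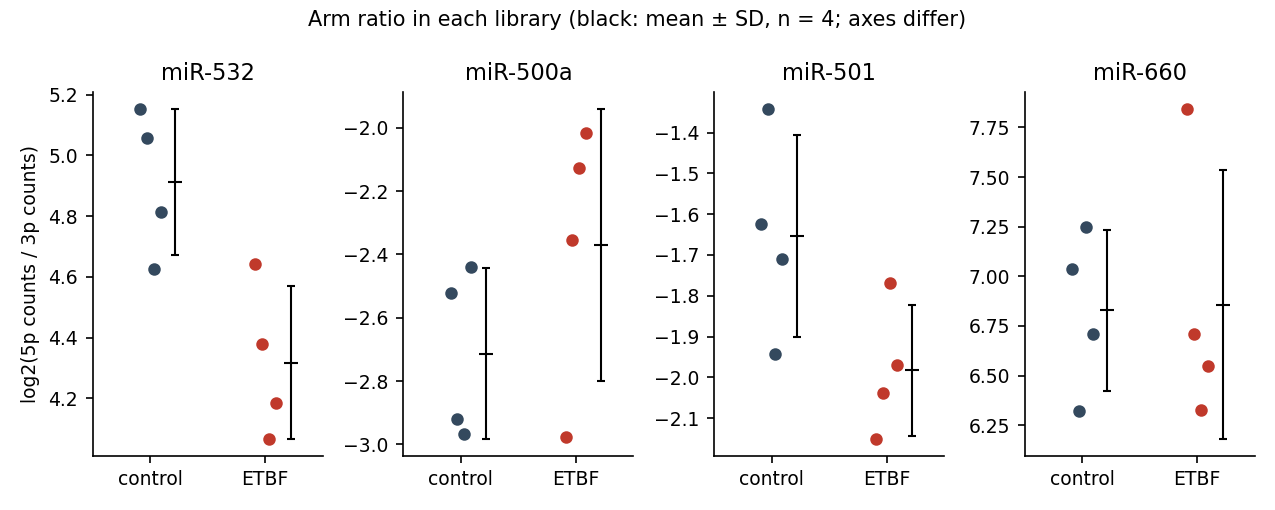
Log2 of the 5p over the 3p counts in each library for the 4 hairpins with both arms tested, each on its own axis, with points for libraries and black marks for the mean ± SD (n = 4). The ETBF values of miR-532 lie lower than the controls except for 1 overlapping pair, and those of the other hairpins overlap more widely.

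To set the spread within the cluster beside other clusters, tested arms were grouped by hairpins on 1 strand with neighbours within 10 kb in RefSeq (GRCh38.p14), leaving out arms with several hairpin copies. Of the 10 clusters with at least 3 such hairpins, the CLCN5 cluster, with 12 tested arms here, was the sixth by the SD of its log2 fold changes (0.31, where the 10 ran from 0.19 to 0.52). One of these 12 arms, miR-500b-5p, repeats the counts of miR-500a-5p. With neighbours within 50 kb it was the seventh of 11, and the highest SD was 0.81. The SD over the 10 members was 0.30, and over all tested miRNAs 0.60. Calls in both directions were present in 3 of the 10 clusters, which were this one, the cluster of miR-23a, miR-27a and miR-24-2, and that of miR-200a, miR-200b and miR-429. In 4 clusters calls were higher only, in 2 lower only, and 1 had none. The cluster of miR-424, miR-450b, miR-503 and miR-542, also on the X chromosome, was named after its values were seen. It had 4 of 5 arms higher and 0 lower, where 19.8% of all tested miRNAs were called higher and 14.6% lower. Its median log2 fold change was 0.82. The CLCN5 cluster had a median of -0.01 over its 12 arms, and the difference between these clusters was not tested.

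**Figure D5:**
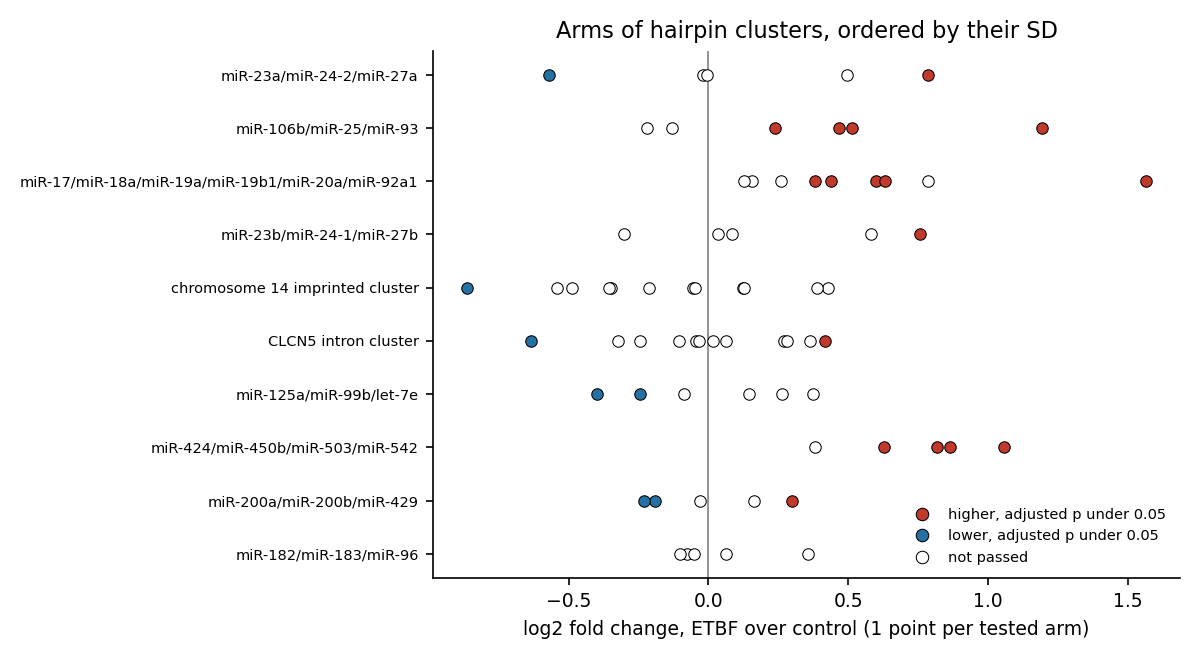
Log2 fold change (ETBF over control) of each tested arm, with 1 row per hairpin cluster, ordered by the SD of the row. Red points were called higher, blue points lower and white points did not pass. The CLCN5 row has 1 red and 1 blue point at its ends and the others between them.

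The 3 miRNAs outside the cluster whose profile over the 8 libraries was nearest to the cluster's summed level were miR-1180-3p, miR-95-3p and miR-139-5p. Their root mean square differences of centred log2 CPM were 0.056, 0.065 and 0.078. miR-1180-3p was at 467 ± 19.9 CPM in controls and 363 ± 9.03 CPM after ETBF. The log2 fold changes were -0.36 (SE 0.07) for miR-1180-3p, -0.31 (SE 0.08) for miR-95-3p and -0.49 (SE 0.08) for miR-139-5p. These miRNAs were selected for a profile like that of the sum, which was lower with ETBF, so their direction follows from the selection and no test is given.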

How the data were processed

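Each of the 8 deposited files lists unnormalised counts by mature miRNA name. Per the submitters' processing notes, the authors used Trimmomatic, FastQC and featureCounts with GRCh37.p5. Not given in the sources used here are versions, aligner, miRNA annotation and strandedness. Libraries were grouped by title. The members and lists were chosen with earlier results of these data known. Tests used edgeR 4.0.16 under R 4.3.3, with its quasi-likelihood fit (TMM, default expression filter with a minimum count of 10), which kept 480 miRNAs and all 10 members. P-values are two-sided, Benjamini-Hochberg adjusted over the 480, with a threshold of 0.05. Each SE was taken from the F statistic and the fold change (absolute log2 value over root F). Arm ratios were tested with limma 3.58.1 on log2 ratios after adding 0.5 to each count. Summed levels, shares and cluster spreads are descriptions. The named miRNAs are the members, the other arms of the same hairpins, tested miRNAs with a member's seed and the 3 nearest profiles; other miRNAs were named after their values were seen. Within a group no 2 libraries agreed within sampling noise (chi-square over its degrees of freedom, 18.4 to 112). The scripts were tested on simulated data. Alternatives were other scalings, filters, DESeq2 1.42.0, limma-voom, a replicate block, thinning, GC offsets, summed near-identical arms (also with shared reads counted once, added after seeing the data) and leaving out each library.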

Additional observations from a re-analysis of the deposited data

Results flagged for a closer look

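Among 52 groups of 4 libraries examined for the members' levels, shares and ratios, 2 held a library far from the other 3 of its group, where chance gives about 1 in 20. The 5p to 3p ratio of miR-660 was 230.0 in ETBF replicate 1 and 80.4 to 105 in the other ETBF libraries; the 3p arm had 5 counts there. The share of miR-188-5p in the cluster was 0.409% in control replicate 1 and 0.428% to 0.431% in the other controls. It had 36 counts there and 35 to 43 in the other controls, so this gap is within counting error.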

How the results depend on the processing

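The calls of miR-532-5p and miR-660-5p kept direction and side of the threshold in every alternative that gave them a value (21 and 20). The count of members called lower, 1, became 2 with RLE scaling and 3 with upper-quartile scaling. It was 3 after removal of the GC trend of the mature sequence and 2 after removal of that of the hairpin. The hairpin alternative was chosen after seeing the data and did not test miR-501-5p or miR-501-3p. With 1 library left out the count was 1 to 2 (2 without ETBF replicate 2 or control replicate 3). Of all tested miRNAs, 14.6% were called lower in the main fit. That share was 16.0% with RLE scaling, 18.5% with upper-quartile scaling, 19.7% with the mature and 21.8% with the hairpin GC trend removed. It was 14.1% without ETBF replicate 2 and 12.8% without control replicate 3. The count called higher was 0 under the mature GC trend, where miR-660-5p had no sequence and was not tested, and 1 in all others. Signs of log2 fold changes near 0 turned as follows, and the cause was not tested. miR-532-3p turned to 0.0079 with total-count scaling and 0.042 with the mature GC trend removed. miR-188-5p turned to -0.020 with upper-quartile scaling and -0.076 after thinning. miR-500a-3p turned to 0.019 with total-count scaling and 0.0015 with the filter of 100 counts in 4 libraries. The entry that sums miR-501-5p with miR-500a-5p and miR-500b-5p was at 0.054, which is not a value of miR-501-5p itself (-0.32). That sum enters the shared miR-500a-5p and miR-500b-5p reads more than once. With those reads counted once (chosen after seeing the data) the 5p sum was -0.053, the sign of miR-501-5p and against that of miR-500a-5p. miR-501-3p turned to -0.0100 with RLE and -0.068 with upper-quartile scaling, -0.026 without a filter, -0.0083 with DESeq2, -0.078 after thinning, -0.018 with the mature GC trend removed and -0.028 (or -0.027 with shared 5p reads counted once) with near-identical arms summed.

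With 1 library left out, the values ran from -0.14 to 0.045 for miR-532-3p, from -0.041 to 0.19 for miR-188-5p, from -0.14 to 0.011 for miR-500a-3p and from -0.037 to 0.053 for miR-501-3p. The arm ratio difference ran from -0.70 to -0.51 for miR-532 and from -0.30 to 0.19 for miR-660, and that of miR-660 was -0.0058 with 2 added to each count. The log2 ratio of the summed level was -0.35 and ran from -0.43 to -0.29 over all alternatives. Same-numbered libraries did not deviate together (correlations -0.058 to 0.061 across tested miRNAs, with 0 of 4 ETBF libraries closest to its own number). No pairing by number was thus seen, though these correlations could miss a weak one. With a replicate block miR-532-5p was at -0.63 (adjusted p = 1.40e-04), miR-660-5p at 0.42 (adjusted p = 0.00247) and the miR-532 arm ratio at -0.60 (adjusted p = 0.0224), and the block changed no other call of a member. The mature GC offset covered 86.9% of tested miRNAs and 9 of 10 members, and the hairpin GC offset 83.3% and 8 of 10.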

Other observations

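Within the controls 8, 5, 1 and 3 of 10 members lay above their own control mean in control replicates 1 to 4. The median log2 deviation of the members was 0.09 in control replicate 1 and -0.03 in control replicate 3. In the ETBF libraries 5 or 6 of 10 members lay above their ETBF mean in each. The same count was not made over all tested miRNAs, so a deviation particular to the cluster was not tested. The near-identical 3p arms among the members are uncertain as separate values. With 4 libraries a group no correlation was computed.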
